A study of Mus musculus with 4 samples.

Results

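The comparison described here set infarcted against non-infarcted left ventricle of wild-type mice, 2 of the 4 RNA sequencing libraries of the series, taken by their labels. All 4 libraries came from hearts of C57BL/6 mice aged 8 weeks, 3 days after an experimental myocardial infarction, and were made from total RNA isolated with TRIzol and read on an Illumina HiSeq instrument. The 4 groups, with 1 library each, were wild-type non-infarcted, wild-type infarcted, Neil3-/- non-infarcted and Neil3-/- infarcted tissue, with genotypes as labelled. The non-infarcted sample is ventricle of a heart that also had an infarct, and no sham-operated heart was analysed here. Whether a library holds 1 mouse or a pool, and where in the ventricle each piece was cut, is not stated in the labels.

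When a coronary artery is closed, the heart muscle it feeds dies, and neutrophils and then monocytes enter the dead tissue, drawn by chemokines and cytokines. They clear debris with proteases and lysosomal enzymes, while fibroblasts divide and lay down the collagen of the later scar. Cardiomyocytes burn mainly fatty acids in their mitochondria and express muscle forms of many enzymes and structural proteins, whereas immune cells, fibroblasts and vessels mostly express the general forms.

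Reads assigned uniquely to genes came to 14.9 M in the non-infarcted and 17.3 M in the infarcted library. Levels are in RPKM, the number of reads scaled to the gene's length and to the library's total of assigned reads, and every pair of values below gives non-infarcted tissue first. Of 17005 genes with a read in either library, 12515 reached 1 RPKM in at least 1 of them and were compared by the log2 ratio of (RPKM + 1), infarcted over non-infarcted. With this ratio, 777 genes were at least 2-fold higher in the infarct (6.21% of genes compared) and 450 were at least 2-fold lower (3.60%). The fold changes printed are ratios of RPKM, with exact 95% intervals in parentheses that reflect read counting alone. With 1 library a side there is no replicate check and no p-value, so each ratio describes these 2 libraries. Genes with near-identical copies (Chi3l3, Stfa2l1, Hba-a1 and the actin genes among those named) are uncertain, since the counting could split or drop their shared reads, and the sources used here do not say whether strand was used.

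The direction of small differences depended on how the libraries were scaled. Over all compared genes the log2 ratio had a median of 0.21, and 67.2% of genes had a ratio above 0, while the 10 genes with most reads held 10.8% of the non-infarcted and 6.59% of the infarcted library. Scaling by the median ratio or by TMM (the trimmed mean of M values) moved the median by -0.20. Higher genes made up 63.3% of the counted genes as deposited, 36.9% after median-ratio scaling and 37.2% after TMM. List medians below are therefore read against 0.21, and lists whose sign turns with the scaling are named as such.

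**Figure D1:**
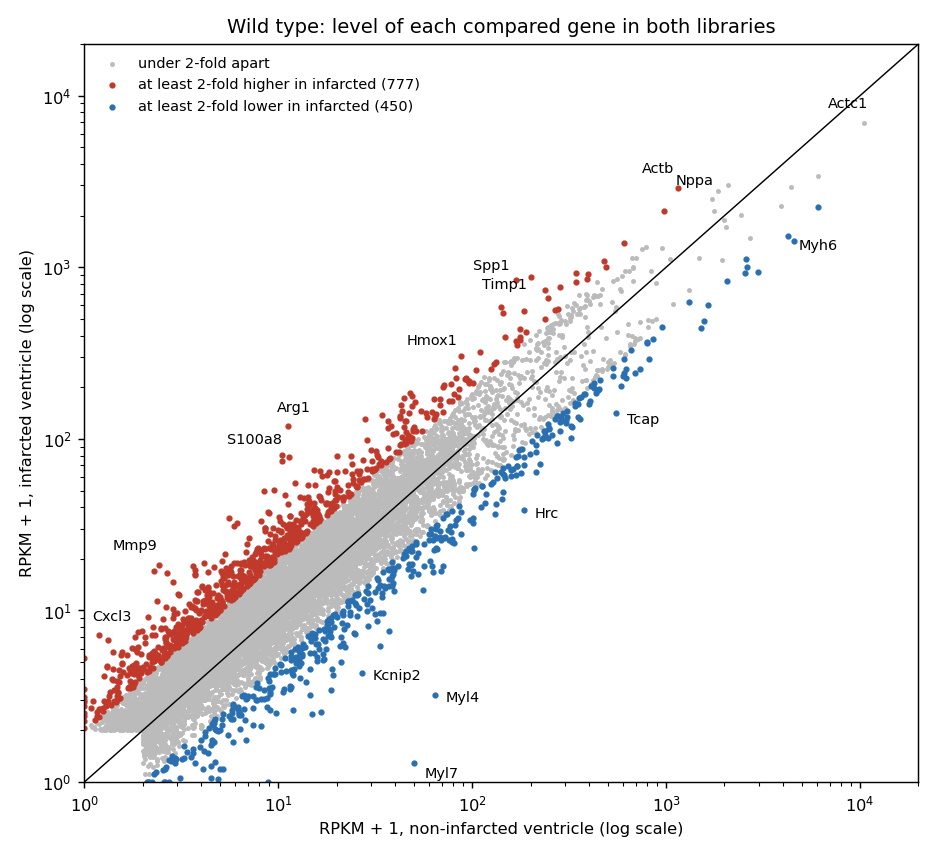
Level of each of the 12515 compared genes, with RPKM + 1 in non-infarcted ventricle on the horizontal and in infarcted ventricle on the vertical log axis, and the line of equal level in black. The 777 genes counted as higher are red and the 450 counted as lower are blue; Arg1 lies far above the line and Myl7 far below it.

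The genes with the highest ratios were mostly genes of myeloid cells. Arg1, the arginase of alternatively activated macrophages, was listed at 10.2 and 118 RPKM, 11.5-fold higher (10.1 to 13.2). S100a8 and S100a9, the paired calcium-binding alarmins of neutrophils, stood at 9.42 and 79.5 RPKM and 9.49 and 73.2 RPKM. Mmp9, the gelatinase stored in neutrophil granules, stood at 1.43 and 17.5 RPKM, 12.2-fold higher (9.56 to 15.9). Il1r2, the decoy receptor that soaks up interleukin-1, was 12.5-fold higher (8.41 to 19.4), and Csf3r, the receptor for granulocyte colony-stimulating factor, was 6.12-fold higher (5.35 to 7.02). Not all of the 15 highest were leukocyte genes. Angptl4, a secreted inhibitor of lipoprotein lipase, stood at 8.55 and 49.6 RPKM, and Adamts4, a protease that cuts proteoglycans, at 5.15 and 31.2 RPKM. The list also held Crct1, a gene of the epidermal differentiation cluster, at 4.59 and 33.6 RPKM, and Sh2d5 at 1.68 and 15.4 RPKM.

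The 10 largest gains in RPKM belonged to Actb, Eef1a1, Des, Cryab, Nppa, Vim, Sprr1a, Spp1, Actg1 and S100a11. Actb, the non-muscle actin, gained most, from 1150.1 to 2899 RPKM, followed by Eef1a1, a translation elongation factor, at 974 and 2138 RPKM. The intermediate filament genes Des and Vim stood at 2074 and 3028 RPKM and at 606 and 1386 RPKM, the first made in muscle and the second in mesenchymal and immune cells. Sprr1a, a cornified-envelope protein also made by stressed cardiomyocytes, stood at 200.1 and 877 RPKM, 4.39-fold higher (4.20 to 4.58). Spp1, the secreted phosphoprotein osteopontin, stood at 168 and 837 RPKM, 4.98-fold higher (4.81 to 5.16). The 10 largest losses were Myl2, Actc1, Mb, Myh6, Tnnt2, Fabp3, Tnni3, Myl3, Slc25a4 and the ribosomal RNA gene Rn28s1, all but the last genes of the contractile apparatus or of energy supply in heart muscle.

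Ordered by level in non-infarcted tissue, high-level genes were the ones counted as lower most often. Of 603 genes above 100 RPKM there, 19.6% were at least 2-fold lower and 5.47% at least 2-fold higher in the infarct, and their median log2 ratio was -0.19. Of 5110 genes at 5 to 20 RPKM, 2.52% were lower and 5.26% higher. The construction sets part of this order. Classes were formed by 1 of the 2 levels in the ratio, and the 1 RPKM added to both levels shrinks ratios of low-level genes. For the 513 genes under 1 RPKM there, a count as lower was impossible. How much of the order is set in this way was not tested.

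**Figure D2:**
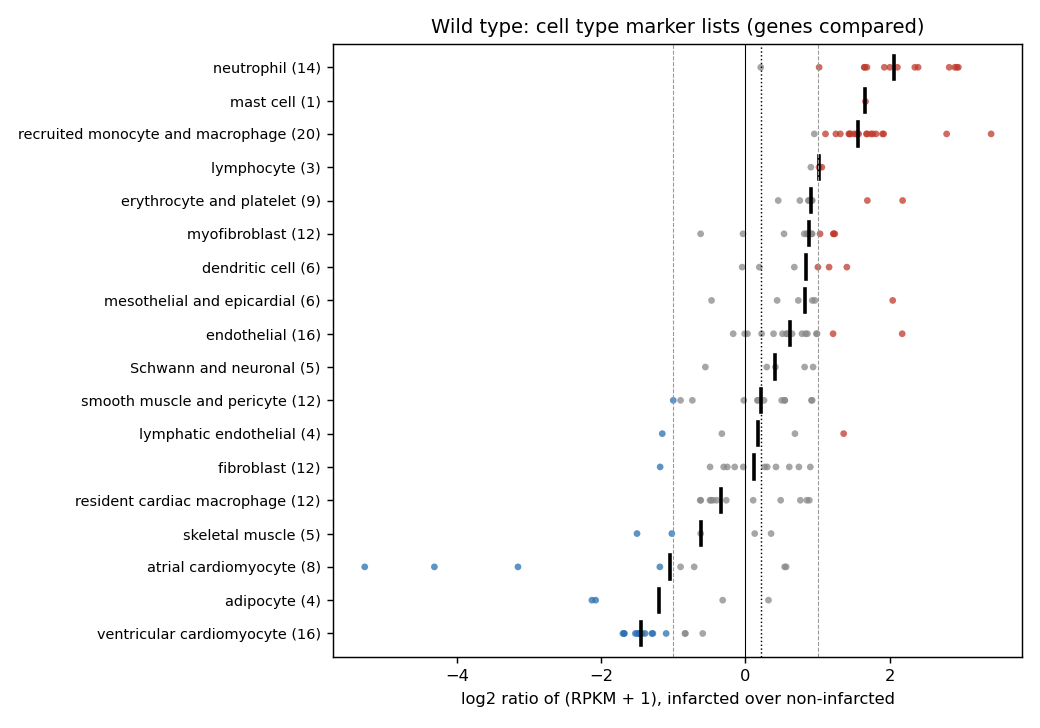
Log2 ratio of (RPKM + 1), infarcted over non-infarcted, of each compared member of the cell type marker lists, with the number of members in parentheses. Red and blue points are at least 2-fold higher or lower, black bars are list medians, the dotted line is the median of all compared genes at 0.21; neutrophil markers lie highest and ventricular cardiomyocyte markers lowest.

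Neutrophil markers were higher as a group. Of 14 markers compared, 13 were at least 2-fold higher and 0 lower, with a median log2 ratio of 2.05, and the summed level of all markers found was 98.03 and 349.9 RPKM. Cxcr2, the receptor for neutrophil-attracting chemokines, stood at 2.45 and 9.84 RPKM, 4.02-fold higher (3.27 to 4.98). Stfa2l1, a stefin gene with close copies, had 2 and 41 reads. The exception was Lcn2, the iron-siderophore-binding lipocalin, which had the highest level of the list in non-infarcted tissue and was under 2-fold apart, at 59.1 and 68.6 RPKM. Granule genes made early in neutrophil development were near 0 in both libraries. Elane, Camp and Ltf had no read in the non-infarcted library and stood at 0.0630, 0.290 and 0.106 RPKM in the infarcted one, and Mpo stood at 0.0784 and 0.0451 RPKM.

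Markers of recruited monocytes and macrophages were also higher, with 19 of 20 at least 2-fold higher, a median of 1.56 and a summed level of 556 and 1721 RPKM. Lyz2, lysozyme, stood highest at 244 and 661 RPKM, and Cd68, a lysosomal membrane protein of macrophages, at 70.3 and 206 RPKM. Chi3l3, a chitinase-like protein, was 7.47-fold higher (6.54 to 8.57). Itgam, the CD11b chain of the complement receptor integrin, was 3.98-fold higher (3.71 to 4.28). The smallest ratio belonged to Csf1r, the receptor that macrophages need to survive, at 28.9 and 56.96 RPKM.

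Markers of resident cardiac macrophages behaved otherwise: 0 of 12 were 2-fold higher, 0 were 2-fold lower, and their median was -0.33, below that of all genes. The summed level of the list was 220.4 and 232 RPKM. Lyve1, the hyaluronan receptor of resident macrophages and lymphatic vessels, stood at 13.3 and 8.27 RPKM, Cbr2, a carbonyl reductase, at 29.9 and 20.9 RPKM, and Gas6, a bridging ligand for dying cells, at 67.8 and 48.4 RPKM. Folr2, the folate receptor of tissue macrophages, was close to equal at 10.3 and 11.1 RPKM. Of the 12 markers, 7 were below a ratio of 1 and 5 above it. Those above included the transcription factor gene Maf and the coagulation factor gene F13a1, at 12.1 and 23.1 RPKM and 30.9 and 56.6 RPKM. In bulk tissue, fewer cells of a type and less RNA per cell cannot be told apart, here and in every list below.

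Lymphocytes left little signal. Only 3 of the 18 lymphocyte genes found reached 1 RPKM, and the summed level of the list was 4.30 and 10.5 RPKM. The B-cell genes Cd79a and Cd79b, which form the signalling part of the B-cell receptor, stood at 0.759 and 2.66 RPKM and 0.763 and 2.30 RPKM, and Cd3e of the T-cell receptor complex at 0.0935 and 0.323 RPKM. Of 6 dendritic cell markers, 3 were at least 2-fold higher, among them Itgax, the CD11c integrin chain, at 2.29 and 7.70 RPKM, and Irf8, a transcription factor of dendritic cells and monocytes, at 5.81 and 14.2 RPKM. Zbtb46, which marks conventional dendritic cells and some endothelium, stood at 3.91 and 3.75 RPKM. Kit, the stem cell factor receptor, was the one mast cell list member compared and stood at 3.17 and 12.2 RPKM, while the mast cell proteases Cpa3 and Cma1 stayed under 1 RPKM, at 0.460 and 0.397 RPKM and 0.927 and 0.587 RPKM. The erythrocyte and platelet list was led by platelet chemokine genes: Pf4 stood at 41.3 and 135 RPKM and Ppbp at 3.15 and 17.8 RPKM. Of 9 members, 2 were counted as higher. The hemoglobin gene Hba-a1 stood at 86.01 and 163 RPKM, and the summed level of the erythrocyte and platelet list was 223 and 492 RPKM.

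The chemokines that draw neutrophils were all higher. Each of the 6 genes compared in this list was at least 2-fold higher, with a median of 1.98. Cxcl3 had 3 and 110 reads, a ratio of 31.6-fold higher (10.5 to 156). Cxcl2 stood at 0.310 and 3.69 RPKM, 11.9-fold higher (4.86 to 37.8), and Cxcl5 at 2.72 and 15.2 RPKM, 5.59-fold higher (4.31 to 7.34). Among the Cxcl ligands of this list, Cxcl1 had the highest level in non-infarcted tissue, at 4.32 and 13.04 RPKM. All 4 are ligands of the receptor encoded by Cxcr2.

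Transcription of many of these genes is known to be switched on by NF-kB, the factor activated downstream of Toll-like and interleukin-1 receptors. The promoter stretches of Cxcl1, Cxcl2, Cxcl3 and Il6 are shown because these inducible genes were among the higher members of their lists and each holds a match to the NF-kB motif searched. The sequences are from RefSeq on build GRCm38.p6, lie just upstream of the annotated gene start outside the transcribed gene, and are printed 5′ to 3′ on the plus strand of the chromosome, which is the strand of all 4 genes. Capitals mark matches to GGNNTTTCC on either strand.
Cxcl1, chr5:90891126-90891213: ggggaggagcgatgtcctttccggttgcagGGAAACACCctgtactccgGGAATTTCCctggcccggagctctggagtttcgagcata
Cxcl2, chr5:90903773-90903860: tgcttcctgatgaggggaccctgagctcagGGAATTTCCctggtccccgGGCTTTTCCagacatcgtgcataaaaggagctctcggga
Cxcl3, chr5:90785999-90786067: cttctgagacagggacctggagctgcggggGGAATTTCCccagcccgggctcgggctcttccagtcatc
Il6, chr5:30013041-30013109: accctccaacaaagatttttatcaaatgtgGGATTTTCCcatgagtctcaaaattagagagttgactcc
Cxcl1 and Cxcl2 each held 2 matches, starting 89 and 70 bases and 96 and 77 bases before the gene start, while Cxcl3 held 1 at 72 bases and Il6 1 at 43 bases. A match describes the letters and does not show binding.

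The same search ran over the stretch from 250 bases before to 50 bases after the start of every compared gene with a RefSeq promoter, which was 9910 genes, 599 of the higher and 346 of the lower ones. The NF-kB motif was present in 7.18% of the higher, 5.78% of the lower and 5.97% of all promoters. The AP-1 motif TGANTCA was present in 10.02%, 5.49% and 4.95%. The motif GAGGAAGT, bound by the myeloid factor PU.1, was present in 9.68%, 1.16% and 3.23%, and the C/EBP motif TTGCNNAA in 12.5%, 10.1% and 8.15%. The MEF2 motif TAAAAATAG of muscle genes was in 6 lower and 0 higher promoters, against 0.383% of all. ERR (TCAAGGTCA) matched 0.835% of the higher, 1.45% of the lower and 0.262% of all promoters, and GATA (AGATA followed by AG) matched 2.50%, 4.05% and 1.77%. All motifs were searched on both strands, and matches to different motifs may overlap.

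Chemokine and receptor genes for monocytes and lymphocytes were at least 2-fold higher in 15 of 22 cases, with 0 lower and a median of 1.35. Ccl2 and Ccl7, both ligands of the monocyte receptor CCR2, stood at 33.3 and 136 RPKM and 18.99 and 78.1 RPKM. Ccl6 had the highest infarct level of the list, at 43.6 and 173 RPKM. Ccl11, eotaxin, which draws eosinophils, stood at 1.25 and 6.97 RPKM, 5.57-fold higher (3.46 to 9.42). Among the receptors, Ccr1 stood at 5.88 and 23.5 RPKM and Cxcr4, the receptor for Cxcl12, at 7.19 and 32.1 RPKM. Cxcl12 itself, a chemokine made by stromal cells at rest, was the one compared member below a ratio of 1, at 61.2 and 58.9 RPKM.

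In the interleukin-1 system, 7 of 14 genes were at least 2-fold higher and 0 lower. The ligand gene Il1b stood at 1.87 and 13.7 RPKM, 7.32-fold higher (5.20 to 10.6). Its antagonists were higher too: the receptor antagonist Il1rn stood at 2.54 and 9.41 RPKM, beside the decoy receptor Il1r2 given above, and the signalling receptor Il1r1 at 11.5 and 24.5 RPKM. Of the inflammasome, which cuts the precursor into active cytokine, Nlrp3 stood at 0.835 and 3.46 RPKM and Casp1 at 2.63 and 6.88 RPKM. Il18bp, which neutralises interleukin-18, went against the list at 11 and 7.01 RPKM.

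Of 20 interleukin-6 family and other cytokine genes, 9 were at least 2-fold higher. Il6 stood at 1.36 and 10.3 RPKM, 7.57-fold higher (4.86 to 12.4), Il11 at 0.413 and 2.94 RPKM, Osm (oncostatin M) at 0.422 and 2.43 RPKM and Clcf1 at 3.12 and 10.3 RPKM. Socs3, the feedback inhibitor of this pathway, stood at 12.8 and 32.2 RPKM. Ctf1, cardiotrophin, and Lifr, the receptor for leukemia inhibitory factor, were below a ratio of 1, at 1.75 and 1.03 RPKM and 7.97 and 5.20 RPKM, and Stat3, the main transcription factor of the pathway, was near equal at 83.02 and 82.1 RPKM. Csf2 and Csf3, the granulocyte growth factors, had no read in the non-infarcted library and stood at 0.0561 and 0.0850 RPKM in the infarcted one. The neutrophil and recruited monocyte marker lists, whose summed levels are given above, were higher, as were most of these cytokine genes. The part of those cells in the ratios was not tested.

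Pattern recognition genes were at least 2-fold higher in 10 of 20 cases, with a median of 1.01. Fpr1 and Fpr2, receptors for bacterial and mitochondrial formyl peptides, stood at 0.403 and 3.57 RPKM and 0.259 and 3.17 RPKM. Tlr13, a receptor for bacterial RNA, stood at 6.64 and 20.96 RPKM, and Tlr3, a receptor for double-stranded RNA, at 5.69 and 6.36 RPKM. By contrast, 0 of 21 interferon response genes were at least 2-fold higher or lower, and their median was 0.44. Isg15, a ubiquitin-like protein induced by interferon, stood at 11.7 and 17.1 RPKM, Irf7 at 12.1 and 22.1 RPKM and Ifit2 at 7.58 and 7.63 RPKM. This median kept its sign under both scalings, whose shift near -0.20 was too small to turn it.

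Antigen presentation and phagocytosis genes were moderately higher. In the MHC list, 6 of 16 genes were at least 2-fold higher: the class II genes H2-Ab1 and H2-Aa stood at 22.96 and 61.7 RPKM and 25.02 and 61.5 RPKM, and the invariant chain gene Cd74 at 67.5 and 169 RPKM. The class I light chain gene B2m stood at 390.1 and 691 RPKM. In the Fc receptor and phagocytosis list, 7 of 16 were at least 2-fold higher, with Fcer1g, the shared Fc receptor signalling chain, at 80.7 and 258 RPKM and Fcgr4 at 3.76 and 13.2 RPKM. Cd36, a scavenger receptor that also carries fatty acids into heart muscle and capillaries, was the one lower member, at 353 and 173 RPKM. Of 20 lysosomal genes, 6 were at least 2-fold higher and 0 lower, with Ctss at 69.6 and 200.5 RPKM and Ctsb at 219 and 423 RPKM for the proteases cathepsin S and B.

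Complement genes had no common direction. Of 16 genes, 4 were at least 2-fold higher and 1 lower. The higher genes were 2 receptor genes, properdin and a C1q chain made by macrophages: C5ar1 stood at 11.9 and 44.6 RPKM, C3ar1 at 13.4 and 42.6 RPKM and C1qb at 124 and 254 RPKM, the last just above 2-fold. Properdin (Cfp), which stabilises the alternative convertase, stood at 18.6 and 55.5 RPKM. C4b, Cd59a and the adipsin gene Cfd were lower in value, at 5.55 and 3.27 RPKM, 36.6 and 20.6 RPKM and 3.48 and 0.0626 RPKM. The list median was -0.01, and with a 5 RPKM minimum it turned to 0.36. Adipsin is made mainly by fat cells, and of 4 fat markers compared, 0 were at least 2-fold higher and 2 lower, Cfd and Car3, the latter at 4.19 and 0.188 RPKM. The better expressed fat markers were closer to equal, with the lipase gene Lipe at 11.2 and 8.81 RPKM and the fat cell transcription factor gene Pparg at 6.58 and 8.45 RPKM. Adipoq (adiponectin) stood at 0.653 and 0.0940 RPKM. The summed level of the 10 adipocyte markers found was 26.97 and 17.8 RPKM, with Plin1, Lep and Cidec at 0 reads in the infarct, and the part of fat tissue in the Cfd value was not tested.

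In the list of oxidant production and defence, 6 of 22 genes were at least 2-fold higher and 1 lower. Subunits of the phagocyte oxidase were higher, with Ncf1 at 10.4 and 31.1 RPKM, Ncf4 at 4.50 and 15.05 RPKM and Cyba at 42.4 and 102 RPKM. Sod2, the superoxide dismutase of mitochondria, stood at 133 and 57.8 RPKM, 2.31-fold lower (2.22 to 2.40), and Prdx3, a mitochondrial peroxiredoxin, at 109.97 and 63.5 RPKM. Sod1, the cytosolic form, was near equal at 159.7 and 155 RPKM. Of 17 genes of arginine, heme and iron handling, 5 were at least 2-fold higher and 0 lower. Hmox1, heme oxygenase, which breaks down heme, stood at 86.1 and 304 RPKM, 3.54-fold higher (3.37 to 3.71), and the ferritin light chain gene Ftl1 at 282 and 762 RPKM. Tfrc, the transferrin receptor that brings iron into cells, went the other way at 73.5 and 40.3 RPKM. Nos2, the inducible nitric oxide synthase that competes with Arg1 for arginine, stood at 6.11 and 13.3 RPKM.

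Matrix proteases and their inhibitors were among the highest lists, with 13 of 22 at least 2-fold higher, 1 lower and a median of 1.47. Timp1, an inhibitor of metalloproteinases, had the highest infarct level of the list, at 139 and 584 RPKM, 4.20-fold higher (4 to 4.42). Plaur, the urokinase receptor, stood at 10.3 and 40.7 RPKM. Mmp14, a membrane-bound collagenase, stood at 41.6 and 132 RPKM and Adam8 at 14.2 and 65.1 RPKM. Mmp2, a gelatinase of fibroblasts, did not share this direction, at 24.7 and 19.8 RPKM, and Timp3 and Timp4 stood at 97.7 and 61.6 RPKM and 15.9 and 4.13 RPKM.

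Collagen genes were higher by less than 2-fold in most cases. Of 15 compared, 13 had a ratio above 1, 1 was at least 2-fold higher and the median was 0.72. The fibrillar collagen genes Col1a1, Col1a2 and Col3a1 stood at 439.9 and 821 RPKM, 283 and 473 RPKM and 426 and 686 RPKM. The one counted gene was Col18a1, a basement membrane collagen and source of endostatin, at 14.4 and 38.7 RPKM. Among processing enzymes, Lox, which cross-links collagen, stood at 60.8 and 143 RPKM and Loxl3 at 16.6 and 40.9 RPKM. The collagen chaperone gene Serpinh1 stood at 259 and 467 RPKM.

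Of 20 adhesive and matricellular genes, 6 were at least 2-fold higher and 2 lower. Fn1, fibronectin, stood at 147 and 389 RPKM, Thbs1 (thrombospondin) at 42.7 and 145 RPKM and Tnc (tenascin C) at 97.1 and 176 RPKM, besides Spp1 above. The small proteoglycan gene Fmod stood at 5.78 and 1.30 RPKM, 4.45-fold lower (3.37 to 5.96), and Comp, a cartilage and tendon matrix protein, at 6.42 and 2.18 RPKM. Postn (periostin), a gene of activated fibroblasts, was almost equal at 461 and 449.9 RPKM, and Dcn (decorin) and Eln (elastin) stood at 281 and 228 RPKM and 34.2 and 21.1 RPKM.

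Fibroblast markers, a list that includes Col1a1 and Col1a2, had no common direction: 0 of 12 were at least 2-fold higher, 1 was lower, and their median of 0.12 turned to -0.08 after median-ratio or TMM scaling. Gsn, the actin-severing gelsolin, stood at 227 and 99.4 RPKM, and Dpt (dermatopontin) at 44.9 and 31.7 RPKM, while Pdgfra, the platelet-derived growth factor receptor of fibroblasts, stood at 12.3 and 19.3 RPKM. Of 12 myofibroblast markers, 4 were at least 2-fold higher. They were Lox, Cthrc1 at 27.9 and 66.1 RPKM, Ltbp2 at 16.9 and 41.3 RPKM and Runx1 at 3.76 and 8.75 RPKM. Cilp, a matrix protein that restrains TGF-beta, stood at 35.97 and 23.03 RPKM.

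In the TGF-beta family, 5 of 20 genes were at least 2-fold higher and 0 lower. The ligand genes Inhbb and Inhba, which encode activin chains, stood at 2.75 and 15.3 RPKM and 5.44 and 17.8 RPKM, Bmp2 at 1.88 and 9.21 RPKM and Tgfb1 at 48.7 and 111 RPKM, and the activin-binding inhibitor gene Fstl3 at 7.97 and 17.3 RPKM. Receptors differed less, with Tgfbr2 at 33.1 and 52.4 RPKM and Tgfbr3 at 11.5 and 8.72 RPKM. Wnt genes had a median of 0.07, which turned to -0.10 under both scalings. Of 16 compared, 0 were at least 2-fold higher and 2 lower, both genes of secreted proteins. Wif1, a Wnt antagonist, had 71 and 2 reads, and Dkk3, of the Dickkopf family, stood at 8.66 and 3.24 RPKM. Dkk3 also stands in the atrial list described below. Of the insulin-like growth factor genes, Igfbp3, a circulating binding protein, was the one counted, at 47.7 and 176 RPKM, and Irs1, an adaptor of the insulin receptor, stood at 6.37 and 2.86 RPKM.

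Endothelial markers were mostly higher by less than 2-fold, with 14 of 16 above a ratio of 1 and a median of 0.61. Pan-endothelial Cdh5 and Pecam1 stood at 99.2 and 181 RPKM and 72.96 and 126 RPKM. Apln, the apelin peptide of sprouting tip cells, stood at 11.2 and 54.1 RPKM, 4.82-fold higher (4.39 to 5.30), its receptor gene Aplnr at 14.3 and 29.2 RPKM, and Esm1, another tip cell gene, at 1.52 and 4.85 RPKM. Of 19 angiogenic signalling genes, 2 were at least 2-fold higher and 2 lower, 4 growth factor genes in all. Pgf, placental growth factor, stood at 7.90 and 36.5 RPKM, 4.62-fold higher (3.97 to 5.41), and Angpt2, the vessel-destabilising angiopoietin, at 4.12 and 18.3 RPKM. Vegfb, a vascular growth factor of muscle, stood at 179.5 and 85.8 RPKM and Angpt1, the vessel-stabilising angiopoietin, at 9.55 and 2.36 RPKM, 4.05-fold lower (3.40 to 4.84). Vegfa stood at 96.3 and 73.2 RPKM and its receptor gene Kdr at 42.97 and 38.1 RPKM. Rgs5, a pericyte gene, stood at 102 and 50.3 RPKM, and Myh11, smooth muscle myosin, at 10.8 and 6.05 RPKM, while smooth muscle actin (Acta2) and transgelin (Tagln), both also in the myofibroblast list, stood at 198 and 376 RPKM and 48.2 and 91.7 RPKM. In the smooth muscle and pericyte list, 8 of 12 members were above a ratio of 1, 0 were at least 2-fold higher and 1 lower. The summed level was 2617 and 3744 RPKM, of which Des held 2074 and 3028 RPKM. Des is made in muscle, as given above, so the sum mostly follows this gene and says little of smooth muscle or pericytes. The list had a median of 0.22, close to that of all genes, and turned to -0.0027 under median-ratio scaling. Of 14 leukocyte adhesion genes, 5 were at least 2-fold higher and 0 lower: Selp, the adhesion molecule of activated endothelium and platelets, stood at 1.48 and 6.96 RPKM and Itgb2, the shared beta chain of leukocyte integrins, at 16.9 and 60.2 RPKM.

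**Figure D3:**
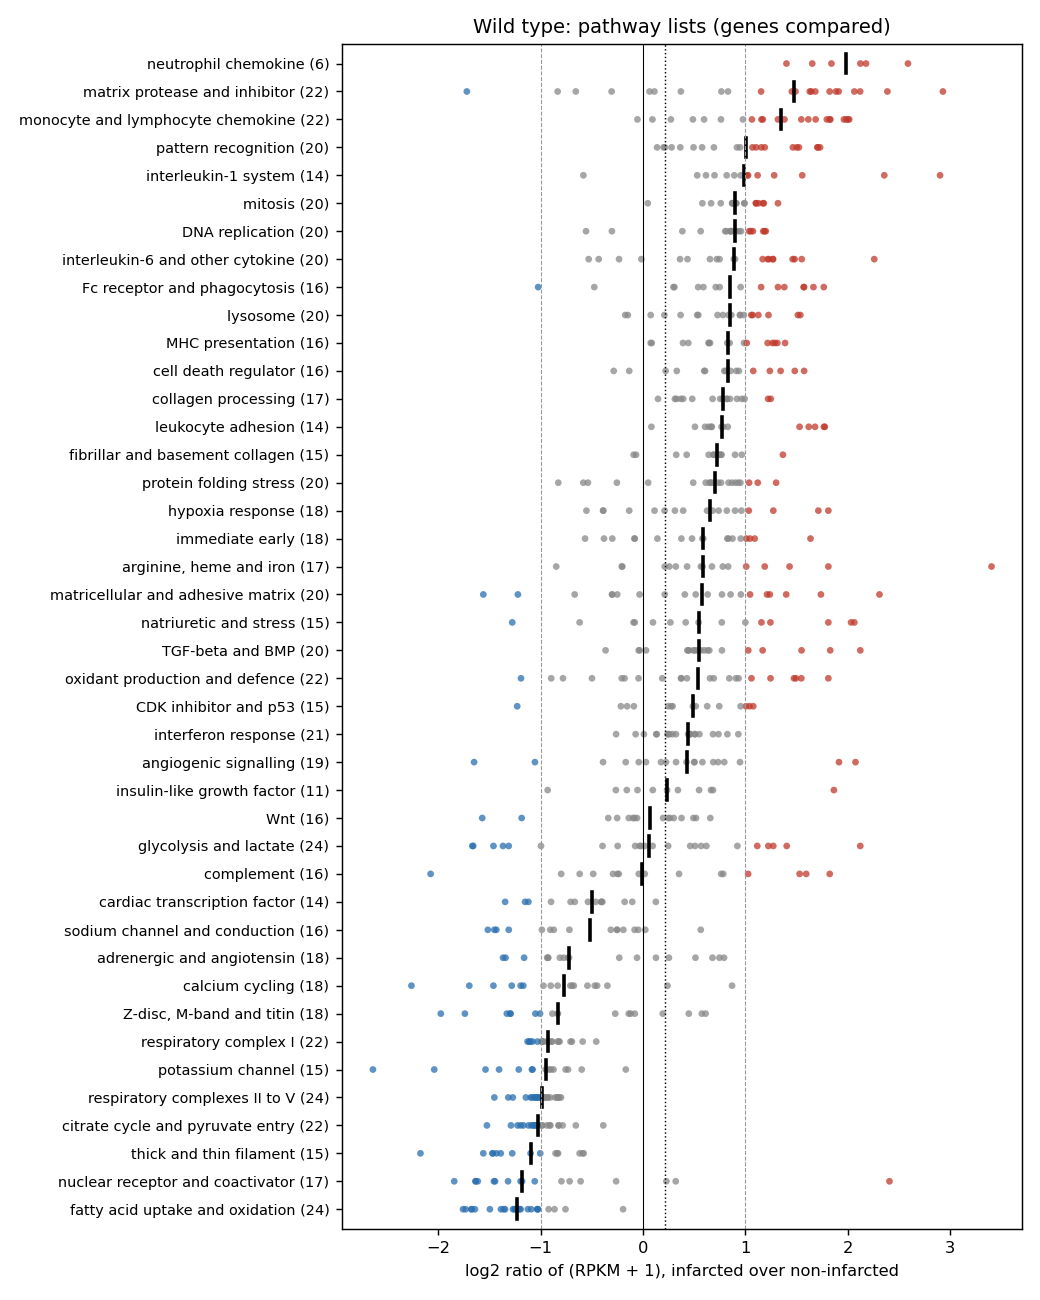
Log2 ratio of (RPKM + 1), infarcted over non-infarcted, of each compared member of the pathway lists, ordered by list median (black bars). Red and blue points are at least 2-fold higher or lower, and the dotted line is the median of all compared genes at 0.21; fatty acid oxidation, nuclear receptor and filament lists lie lowest, and neutrophil chemokines highest.

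Ventricular cardiomyocyte markers were the lowest cell type list. Of 16, 13 were at least 2-fold lower, 0 higher, and the median was -1.45. They held 9.67% (9.66 to 9.69) and 4.18% (4.17 to 4.19) of all assigned reads. Myh6, the fast myosin heavy chain of adult mouse ventricle, stood at 4231 and 1528 RPKM, 2.77-fold lower (2.75 to 2.79). Myl2, the ventricular regulatory light chain, stood at 6067 and 2248 RPKM, and Mb (myoglobin) at 4539 and 1413 RPKM. The 3 markers under 2-fold were Tnnt2 at 6042 and 3379 RPKM, Actc1 at 10450 and 6933 RPKM and Actn2 at 1079 and 606 RPKM.

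Within the contractile apparatus the ratios were unequal. Filament genes had a median of -1.10, with 9 of 15 at least 2-fold lower. The kinase gene Mylk4 stood at 13.6 and 2.24 RPKM, 6.09-fold lower (5.26 to 7.07), while Tpm1 (tropomyosin) stood at 4414 and 2952 RPKM and Actc1 was 1.51-fold lower (1.498 to 1.52). In the Z-disc and titin list, Tcap, which anchors titin, was 3.96-fold lower (3.78 to 4.15), and Myot (myotilin) stood at 23.7 and 6.38 RPKM. Other members of the same structures were higher in the infarct: Xirp2, an actin-binding repeat protein of intercalated discs, at 356 and 543 RPKM, the small heat shock protein gene Cryab at 1856 and 2764 RPKM and Flnc (filamin C) at 171 and 234 RPKM. Ankrd1, a stress-responsive titin partner, was near equal at 1994 and 1885 RPKM.

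Calcium handling genes had a median of -0.77, with 6 of 18 at least 2-fold lower. Hrc, which buffers calcium inside the sarcoplasmic reticulum, stood at 183 and 37.4 RPKM, 4.90-fold lower (4.64 to 5.18). Pln (phospholamban) stood at 1568 and 483 RPKM, Atp2a2, the calcium pump it restrains, at 1649.9 and 598 RPKM, and Ryr2, the release channel, at 161 and 65.5 RPKM. Fkbp1b, which binds that channel, went the other way at 0.933 and 2.53 RPKM.

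Potassium channel genes were below a ratio of 1 in all 15 cases, and 7 were at least 2-fold lower. Kcnip2, the accessory subunit of the transient outward current, stood at 26.1 and 3.35 RPKM, 7.79-fold lower (5.72 to 10.8), and Kcnd2, a pore subunit of that current, at 3.74 and 1.04 RPKM. Kcnj3, a channel chiefly of atria and pacemaker cells, stood at 17.9 and 3.59 RPKM. In the sodium channel and conduction list, Scn4b stood at 2.72 and 0.300 RPKM, Hcn4, the pacemaker channel, at 3.66 and 0.702 RPKM, and Gja1, the main ventricular connexin, at 222 and 186 RPKM. Jup (plakoglobin) was near equal at 101 and 102 RPKM.

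The 3 lowest ratios among genes at 5 RPKM or more belonged to atrial markers. Myl7, the atrial regulatory light chain, had 437 and 3 reads covering 96.5% and 19.9% of the gene's length, and was 169-fold lower (57.4 to 822). Myl4, the atrial essential light chain, stood at 63.1 and 2.23 RPKM. Sln (sarcolipin) had 63 and 0 reads. Against a floor of 3 reads per library, Sln was at least 24.3-fold lower. Of 8 atrial genes compared, 4 were at least 2-fold lower, while Nppa, the atrial natriuretic peptide that stressed ventricle also makes, stood at 1715 and 2498 RPKM, and Gja5, an atrial and conduction system connexin, at 5.68 and 8.88 RPKM. In the libraries labelled Neil3-/-, Myl7 stood at 10.6 and 0.183 RPKM and Myl4 at 16.01 and 2.30 RPKM, so the wild-type non-infarcted library had the highest level of both among the 4. Atrial tissue in the non-infarcted sample was not tested as a source of these ratios, nor of those of Kcnj3, Hcn4, Dkk3 and Tbx5.

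Cardiac transcription factor genes differed less than the structural genes, with a median of -0.50 and 3 of 14 at least 2-fold lower. These were Smyd1, a muscle methyltransferase, at 211 and 82.4 RPKM, Prox1 at 13.7 and 5.61 RPKM and Irx4, a ventricle-specific factor, at 20.5 and 8.91 RPKM. Gata4 stood at 63.8 and 56.2 RPKM, Mef2d at 58.7 and 54.5 RPKM and Srf at 38.6 and 42.2 RPKM. Of 18 adrenergic, angiotensin and related genes, 0 were at least 2-fold higher and 3 lower, with the receptor genes Adra1a at 3.57 and 0.770 RPKM and Agtr1a at 16.99 and 6.09 RPKM, while the endothelin gene Edn1 stood at 2.72 and 5.44 RPKM and its receptor gene Ednrb at 11.2 and 19.4 RPKM.

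Fatty acid uptake and oxidation was the lowest pathway list, with a median of -1.24. Of its 24 genes, 20 were at least 2-fold lower and 0 higher. Related process terms of the deposited files varied more, from a median of -1.11 for fatty acid catabolic process. Fatty acid beta-oxidation had a median of -0.36, with 7 of 23 genes at least 2-fold lower and 0 higher. Fatty acid metabolic process had a median of 0.08, with 5 of 46 lower and 1 higher. Lpl, which frees fatty acids from lipoproteins, stood at 1505 and 444 RPKM, 3.39-fold lower (3.35 to 3.43), while its inhibitor gene Angptl4 was higher as given above. Acsl1, which activates fatty acids, stood at 212 and 62.9 RPKM, and Acadm, the medium-chain acyl-CoA dehydrogenase, at 321 and 100.04 RPKM. The transporter gene Slc27a1 was nearest to equal at 40.3 and 35.03 RPKM. Citrate cycle genes had a median of -1.03, with Idh2 at 583 and 202 RPKM. Among the pyruvate dehydrogenase kinases, Pdk4 stood at 64.7 and 30.6 RPKM and Pdk1, a hypoxia target, at 31.7 and 23.98 RPKM.

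All 22 complex I genes and all 24 genes of complexes II to V were below a ratio of 1, with medians of -0.93 and -0.99. The complex I ratios lay close together, from -1.13 to -0.46 on the log2 scale, and only 5 passed 2-fold lower. Ndufa10 stood at 287 and 133 RPKM and Ndufa1 at 97.1 and 70.4 RPKM. In complexes II to V the lowest ratios belonged to muscle forms of cytochrome oxidase subunits, Cox8b at 618 and 225 RPKM and Cox6a2 at 2062 and 827 RPKM, while Cox5b stood at 843 and 483 RPKM.

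Regulators of these genes were lower as well: 10 of 17 nuclear receptor, coactivator and target genes were at least 2-fold lower. Ppargc1a, the coactivator that drives mitochondrial genes, stood at 21.5 and 7.21 RPKM, 2.99-fold lower (2.75 to 3.25). Rxrg, a partner of fatty acid receptors, stood at 16.01 and 4.55 RPKM, and the uncoupling protein gene Ucp3 at 5.35 and 1.04 RPKM. The ventricular cardiomyocyte markers were lower, as were most of these energy genes, and the part of cardiomyocyte content in the ratios was not tested. Ppard and Pparg, receptors of wider expression, were slightly higher in value, at 19.8 and 23.4 RPKM and 6.58 and 8.45 RPKM.

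Glycolysis genes had no common direction. Of 24, 5 were at least 2-fold higher and 5 lower, and the median of 0.05 turned to -0.17 under both scalings. Slc16a3, the lactate exporter of glycolytic cells, stood at 9.88 and 46.4 RPKM, 4.69-fold higher (4.19 to 5.26), while Slc16a1, the importer of oxidative muscle, stood at 76.9 and 38.04 RPKM. Hk3, the hexokinase of leukocytes, stood at 3.11 and 9.86 RPKM. The shared enzyme genes Aldoa and Ldha stood at 1484 and 1127 RPKM and 546 and 552 RPKM.

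Within gene families, muscle and general members had different ratios. Pairs of the same family were set up, with 1 gene taken as the muscle or cardiomyocyte member and 1 as the general member. In 30 of 30 pairs the general gene had the higher log2 ratio. The pairs were drawn up with earlier results of these libraries known, so the count is a description. The roles were not checked here against other tissues and may not hold for every pair, such as Atp2a2 and Atp2a3. Other partners were possible, such as Pdk1 and Timp3, which were lower in value as given above. Muscle members were at least 2-fold lower in 24 pairs and higher in 0, with a median of -1.41, and general members were at least 2-fold higher in 9 pairs and lower in 0, with a median of 0.74. The glucose transporter gene of muscle, Slc2a4, stood at 142 and 43.9 RPKM and the general one, Slc2a1, at 19.8 and 49.2 RPKM, so that their order reversed. Pgam2 and Pgam1, muscle and general phosphoglycerate mutase, stood at 359 and 129.6 RPKM and 108 and 205 RPKM, also in reversed order. For enolase, Eno3 stood at 398 and 159.6 RPKM and Eno1 at 41.6 and 91.3 RPKM. Reads covered only 38.2% and 38.3% of Eno1's length, so its level against Eno3 is uncertain. Fabp3, the heart fatty acid binding protein, was 3.20-fold lower (3.13 to 3.27) and Fabp5, a form of macrophages and endothelium, 2.42-fold higher (2.18 to 2.69). For actin and myosin, Actb was 2.52-fold higher (2.49 to 2.55) against Actc1 at 1.51-fold lower (1.498 to 1.52), and Myh9, non-muscle myosin, stood at 114 and 227 RPKM. Rpl3l, a ribosomal protein of striated muscle, stood at 54.9 and 12.2 RPKM and its general counterpart Rpl3 at 317 and 503 RPKM. Timp4 and Timp1 were furthest apart. The muscle gene exceeded the general one in 25 pairs in non-infarcted and in 21 pairs in infarcted tissue. These counts compare levels of different genes. Cpt1b, a muscle carnitine palmitoyltransferase gene counted below its partner in both tissues, had reads over only 9.43% and 9.92% of its length.

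Not all muscle genes were lower. Cav3, the caveolin of muscle, stood at 84.2 and 85.8 RPKM, and Itga7, the laminin receptor chain of muscle, at 91.8 and 92.8 RPKM. Among the general members, Cox7a2 stood at 185 and 121 RPKM.

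**Figure D4:**
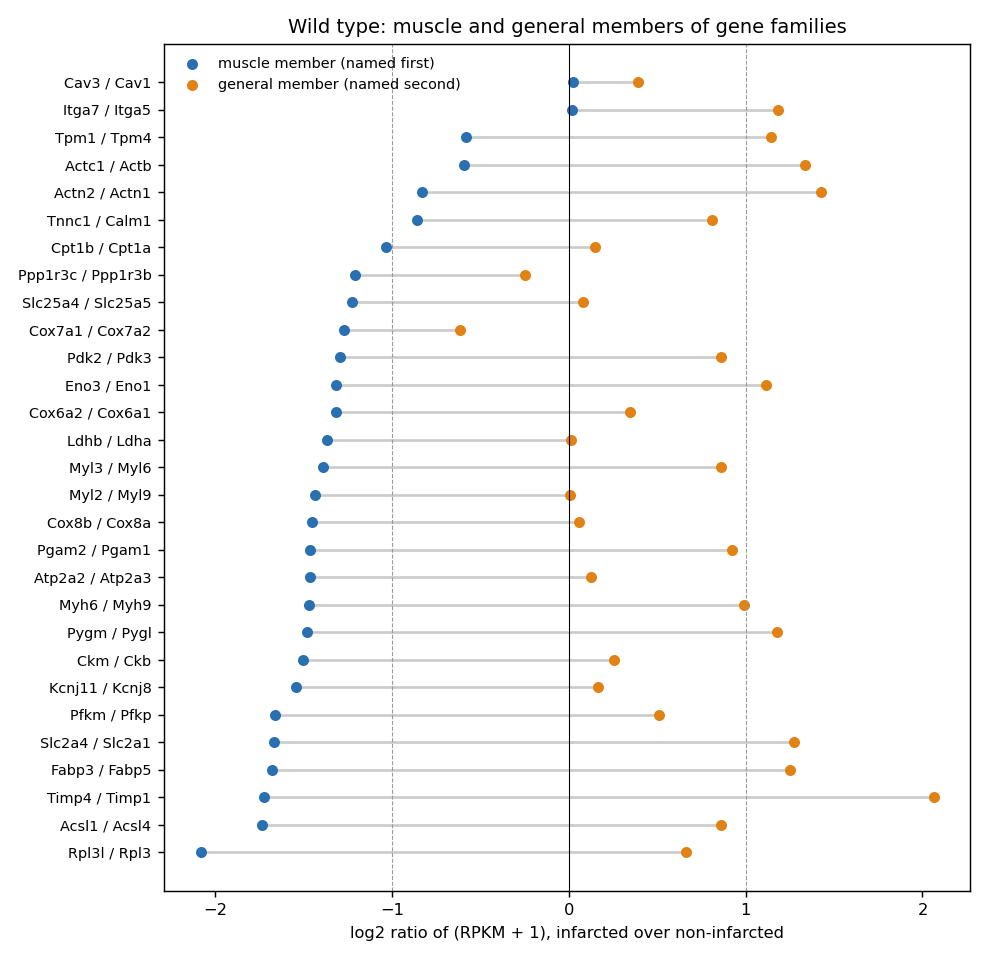
Log2 ratio of (RPKM + 1), infarcted over non-infarcted, for the muscle gene (blue) and the general gene (orange) of 29 gene family pairs, ordered by the muscle gene. Dashed lines mark 2-fold; every orange point lies to the right of its blue partner, and the caveolin pair is closest together.

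The promoter of Pgam2 is shown as the muscle member of these pairs with a match to the MEF2 motif TAAAAATAG, a site of muscle genes, given in capitals. It comes from RefSeq on build GRCm38.p6, lies upstream of the annotated gene start, and is printed 5′ to 3′ on the minus strand, which is the strand of the gene.
Pgam2, chr11:5803838-5803906: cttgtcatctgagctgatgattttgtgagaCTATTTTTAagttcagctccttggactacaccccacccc
The match reads as the reverse complement on this strand and starts 80 bases before the gene start.

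Hypoxia response genes were at least 2-fold higher in 4 of 18 cases, with 0 lower. Adm, the vasodilator peptide adrenomedullin, stood at 4.38 and 16.6 RPKM, Car9, a carbonic anhydrase, at 1.17 and 3.43 RPKM, and Slc2a1 and Hmox1 as given above. Other textbook targets did not share the direction, with Vegfa lower in value as given above, Egln1, the oxygen sensor, at 96.6 and 65.5 RPKM and Bnip3 at 95.1 and 86.5 RPKM. In the stress list 5 of 15 genes were at least 2-fold higher and 1 lower. Nppb, the B-type natriuretic peptide, stood at 750.01 and 1279 RPKM and Nppa as above, and Gdf15, a secreted stress cytokine, at 7.99 and 35.8 RPKM, 4.48-fold higher (3.70 to 5.45). Other genes of the fetal and stress program were lower in value: Myh7, the slow myosin heavy chain, at 158 and 64.7 RPKM, and Acta1, skeletal actin, at 732 and 476 RPKM. Of 18 immediate early genes, 4 were at least 2-fold higher and 0 lower, led by Myc, a growth-promoting transcription factor, at 10.5 and 34.6 RPKM, while Egr1 was near equal at 36.8 and 34.7 RPKM and Klf4 stood at 18.03 and 11.8 RPKM.

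The listed proliferation genes were mostly higher by less than 2-fold. All 20 mitosis genes had a ratio above 1 and 6 were at least 2-fold higher, and for DNA replication 6 of 20 were. Plk1, a mitotic kinase, stood at 6.25 and 17.1 RPKM, Mki67, the proliferation antigen, at 15.1 and 28.8 RPKM, and Mcm5, of the replicative helicase, at 7.75 and 19.1 RPKM. Gmnn (geminin), which blocks relicensing of DNA, went the other way at 13.9 and 11.1 RPKM. The median ratios of both lists, 0.90 and 0.89, kept their sign under every alternative, though scaling shifts near -0.20 could not have turned them. Related process terms of the deposited files had lower medians. The DNA replication term had a median of 0.26, near the 0.21 of all genes, and 3 of its 45 genes passed 2-fold. For the mitosis term the median was 0.44 and 3 of 34 passed. Mitotic cell cycle had a median of 0.10 and 1 of 21 passing, and cell cycle 0.50 and 6 of 47. Cdkn1a, the p53-induced cell cycle inhibitor, stood at 48.2 and 100.2 RPKM, and Ccng1, another p53 target and the one lower member of its list, at 303 and 129 RPKM.

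Of 16 cell death genes 5 were at least 2-fold higher and 0 lower, and of 20 protein folding genes 3 and 0. Ripk3, the kinase of necroptosis, stood at 4.65 and 15.8 RPKM and Bid, which links death receptors to mitochondria, at 1.55 and 5.02 RPKM, and Fas, a death receptor, at 8.40 and 6.71 RPKM. Of chaperones of the secretory pathway, Sdf2l1 passed 2-fold, at 8.23 and 21.7 RPKM, and Calr did not, at 279 and 522 RPKM. The muscle small heat shock protein genes Hspb6 and Hspb8 stood at 1308 and 736 RPKM and 327 and 224 RPKM, whereas Hspb1, of wide expression, stood at 355 and 687 RPKM.

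The same contrast in the libraries labelled Neil3-/- is set beside these values as a second pair of libraries. Neil3 reads there were 391 and 763, against 62 and 155 in wild type, so the label was not borne out by this gene's reads and is used as a label only; the labels do not say which part of the gene was removed. In that pair 1030 of 12563 compared genes (8.20%) were 2-fold or more higher in the infarct, and 762 (6.07%) were 2-fold or more lower. Of the wild-type higher genes, 619 were also higher there, 79.7% of the wild-type list and 60.1% of the other. Of the wild-type lower genes, 409 were also lower, 90.9% and 53.7%. The list medians lay further out for heart muscle, at -1.92 for ventricular cardiomyocyte and -1.59 for fatty acid oxidation genes, and for neutrophil markers at 2.39; none of these differences between the pairs was tested. Resident macrophage markers had a median of 0.02 and again 0 genes at least 2-fold apart. Arg1 stood at 6.63 and 161 RPKM and Il6 at 1.03 and 14.6 RPKM. Nppb, higher in the wild-type infarct, stood at 562 and 524 RPKM.

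**Figure D5:**
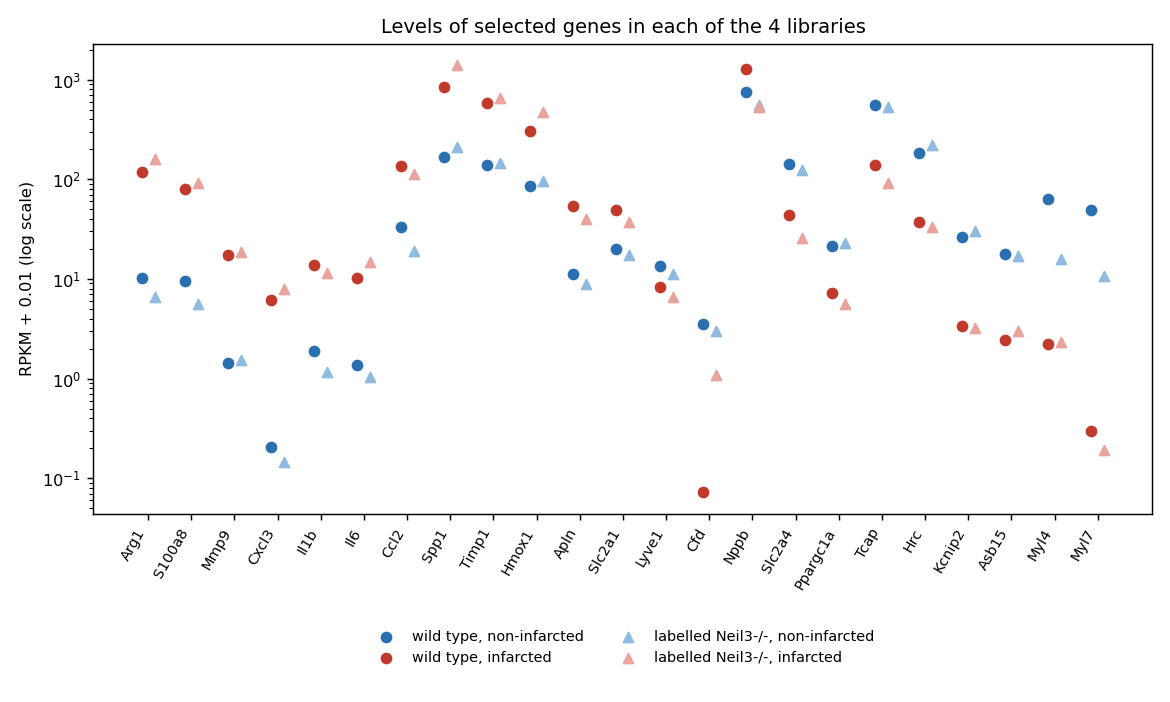
RPKM + 0.01 on a log axis for selected genes named in the text in each of the 4 libraries, circles for wild type and triangles for libraries labelled Neil3-/-, darker red or blue for wild type. In both pairs Arg1 to Slc2a1 are higher in infarcted tissue (red) and Slc2a4 to Myl7 are lower; Nppb is at 1279 against 750.0 RPKM in wild type and nearly equal in the other pair.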

How the data were processed

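Each of the 4 groups was sequenced as 1 library. The deposited counts are uniquely assigned reads per gene, per the file headers, keyed by Entrez gene identifier and listed only where a read was found; an absent gene was taken as 0 reads. The deposited RPKM values equal reads divided by listed length and library total, to within a relative error of 5.1e-15. The deposited Coverage column, in percent per the file headers, was used only for Myl7, Eno1 and Cpt1b. Genome build mm9 is named in the submitters' processing notes; for the aligner, counter and annotation the sources used here give nothing.

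The log2 ratio of (RPKM + 1) was computed for genes that reached 1 RPKM in either library, and differences of 2-fold or more were counted. Ratios of RPKM carry exact Clopper-Pearson 95% intervals of the read share, and a gene with 0 reads is bounded against 3 reads per library. Depth was 14.9 M and 17.3 M reads, at which 1 read on a gene of 2 kb is 0.0336 and 0.0290 RPKM. With 1 library per group no test, p-value or paired analysis was run.

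Named genes are the 15 highest and 15 lowest ratios among genes at 5 RPKM or more, the 10 largest gains, losses and read numbers in each library, all genes of the 30 family pairs, and members of the 60 gene lists: the 6 with the largest ratio, the 3 with the highest level, the one nearest a ratio of 1, those with 0 reads and those against the list's median. A few genes that the rule names, and 1 pair in the plot of pairs, are not reported here. The lists hold 938 symbols, of which 929 were found. Members and lists were chosen with earlier results of these data known.

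Alternatives were pseudocounts of 0.1 and 5 RPKM, a minimum of 5 RPKM, no minimum, median-ratio and TMM scaling (edgeR 4.0.16 in R 4.3.3, for the scaling factors only), totals without ribosomal and small RNA genes, and a count by interval. Other steps used Python 3.11.15 with pandas 2.3.3 and SciPy 1.17.1. The counting of 2-fold differences and the intervals was checked on read counts simulated with known changes. Promoters came from RefSeq on GRCm38.p6, matched by symbol or gene identifier for 9910 of 12515 compared genes; no mm9 coordinates are given.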

Additional observations from a re-analysis of the deposited data

Results flagged for a closer look

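One gene was counted in opposite directions in the 2 genotypes as labelled. Mir1945, a microRNA gene, had a log2 ratio of -1.44 in wild type, with 2 and 0 reads in non-infarcted and infarcted tissue, and of 1.27 in the libraries labelled Neil3-/-. These values rest on 2 reads or fewer per wild-type library and lie under the floor of 3 reads, so no fold is given. The difference between the genotypes was not tested.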

How the results depend on the processing

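No paired analysis was possible because each group has 1 library, and for the same reason no replicate could be left out. Against 777 higher and 450 lower genes, a pseudocount of 0.1 RPKM gave 1262 and 633, a pseudocount of 5 RPKM gave 299 and 227, median-ratio scaling gave 452 and 773, and TMM gave 455 and 768; the cause was not tested beyond the construction of each. A minimum of 5 RPKM gave 660 and 382, totals without ribosomal and small RNA genes 756 and 463, and counting only genes whose interval lies beyond 2-fold 658 and 400. The general member kept the higher ratio in 30 of 30 pairs under each alternative that was run on them. Scaling shifts both members of a pair nearly alike, so these alternatives could hardly have altered that order. List medians that turned sign were fibroblast (-0.081 under median-ratio scaling and -0.078 under TMM), lymphatic endothelial (-0.18 with no minimum, -0.0090 under median-ratio scaling and -0.0060 under TMM), smooth muscle and pericyte (-0.0027 under median-ratio scaling), glycolysis (-0.17 under both scalings), Wnt (-0.10 under both scalings), complement (0.36 with a minimum of 5 RPKM), adipocyte (0.0016 with that minimum) and mast cell (-0.064 with no minimum). Of the 268 named genes counted, 48 were no longer 2-fold apart under median-ratio scaling, 47 under TMM and 83 with a pseudocount of 5 RPKM. That 0 turned direction under these was fixed in advance. The scalings moved the median by only -0.20, and a pseudocount keeps the sign of every ratio. Depth limits genes near 1 RPKM most.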

Other observations

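The Asb genes, which encode ankyrin repeat proteins with a SOCS box that mark partners for ubiquitination, were looked at as a family after Asb15 and Asb14 had appeared among the lowest ratios, so the family was chosen after its values were seen. Of 15 compared, 0 were at least 2-fold higher and 6 were at least 2-fold lower in the infarct, and their median log2 ratio was -0.53. Asb15 stood at 17.8 and 2.43 RPKM, 7.32-fold lower (6.24 to 8.61), and Asb14 at 18.1 and 3.22 RPKM, 5.61-fold lower (4.57 to 6.94). Asb10 stood at 20.1 and 4.02 RPKM, Asb11 at 67.8 and 15.98 RPKM, Asb2 at 167 and 60.7 RPKM and Asb18 at 5.83 and 2.06 RPKM. Other members were near equal, with Asb3 at 2.25 and 2.19 RPKM and Asb12 at 6.71 and 6.25 RPKM, and Asb6 was the highest ratio of the family at 5.42 and 10.1 RPKM. The lower members had the same direction in the libraries labelled Neil3-/-, where Asb15 stood at 16.95 and 2.999 RPKM and Asb2 at 161 and 36.1 RPKM.

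The remaining lowest ratios by rank covered muscle genes outside the lists. Dhrs7c, a dehydrogenase of the sarcoplasmic reticulum, stood at 32.4 and 5.23 RPKM, Art1, a muscle ADP-ribosyltransferase, at 101 and 21.997 RPKM, Scd4, a cardiac stearoyl-CoA desaturase, at 10.97 and 1.64 RPKM, and Lrtm1 at 36.1 and 6.62 RPKM. Efnb3, an ephrin ligand, stood at 15.7 and 1.58 RPKM, 9.94-fold lower (7.96 to 12.5). Among 447 biological process terms given in the deposited files, the lowest median belonged to fatty acid catabolic process, at -1.11 over 20 genes with 12 at least 2-fold lower. The highest belonged to leukocyte chemotaxis, at 1.07 over 30 genes with 15 at least 2-fold higher. Regulation of angiogenesis ranked among the 10 highest, at 0.77 over 41 genes with 17 higher and 0 lower, while muscle contraction stood at -0.56 over 29 genes with 9 lower.

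Of 6 mesothelial and epicardial markers compared, 1 was at least 2-fold higher and 0 lower, with a median log2 ratio of 0.83. The one counted was Krt19, an epithelial keratin, at 0.400 and 4.76 RPKM. Krt18 stood at 3.16 and 6.91 RPKM and Aldh1a2, which makes retinoic acid, at 35.8 and 70.7 RPKM, while Wt1 stood at 3.34 and 2.14 RPKM. Msln (mesothelin) stayed under 1 RPKM, at 0.0629 and 0.624 RPKM. The lymphatic list had opposite members, with Pdpn (podoplanin) at 14.004 and 37.5 RPKM and Prox1 at 13.7 and 5.61 RPKM, the latter also a cardiomyocyte gene.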
